A study of Mus musculus with 108 samples.

Results

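The comparison described here is that of the adult hippocampus (HIP) of Cul3+/- and wild-type (WT) mice. It rests on 10 RNA-seq libraries, 5 from WT and 5 from Cul3+/- mice, out of 108 libraries in the whole series. The labels name 12 libraries of adult HIP, and 2 of them were left out because the genotype of their mice differs between the labels and the study's quality table. Each library holds the total RNA of the HIP of 1 mouse, depleted of ribosomal RNA, and it was sequenced to compare RNA levels between the genotypes. Mice of both genotypes had the strain background that the labels write as C56Bl/6N and were dissected as adults, at P35 by the labels and between 4 and 6 weeks of age by the methods, without treatment. The Cul3+/- mice carried a germline frameshift in every cell, an insertion of 1 base in exon 6 of Cul3 that goes back to 1 CRISPR founder, so the mutant group represents 1 allele from 1 founder, and its WT group carried no edited allele. No label gives the sex of a mouse. Cortex (CX) and cerebellum (CB) of the same adult mice, and HIP of 12 other mice at P7, were used only where a difference between datasets was asked for.

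Cul3 is the scaffold of a family of ubiquitin ligases: its one end holds the RING protein Rbx1, its other end binds adaptors with a BTB domain, and each adaptor brings its own substrates, among them Nrf2 (through Keap1) and RhoA (through Kctd13 and its relatives). The ligase works when the small protein Nedd8 is attached to Cul3 and is reset by the COP9 signalosome. The adult hippocampus consists of the pyramidal cell fields CA1, CA2 and CA3 and the dentate gyrus, which still forms new granule cells, and it borders on the choroid plexus, so that dissections may carry tissue of the plexus along. The adult brain makes its own cholesterol, since lipoproteins of the blood do not pass into it, under the control of the transcription factor SREBP2.

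The edited exon is shown first because it defines the mutant group. It is coding exon 6 of 16 of the Cul3 transcript on the minus strand of chromosome 1, chr1:80286899-80287127 of GRCm38 (GENCODE M21), within the gene at chr1:80264923-80340480. The capitals mark the 23 bases matched by a guide RNA of the study, with its PAM, chr1:80287041-80287063, read 5′ to 3′ on the coding strand.
Cul3 exon 6: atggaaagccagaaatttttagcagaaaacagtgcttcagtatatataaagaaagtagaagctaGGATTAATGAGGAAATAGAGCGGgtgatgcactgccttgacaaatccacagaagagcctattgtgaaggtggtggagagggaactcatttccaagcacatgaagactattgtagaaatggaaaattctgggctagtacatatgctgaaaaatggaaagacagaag
In the same site written alone, the capitals mark the PAM.
Guide target: ggattaatgaggaaatagagCGG

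Cul3 RNA fell in HIP of mutant mice to 50.3% of the WT mean. The WT libraries held 177, 189, 172, 159 and 177 CPM (counts scaled to normalized library sizes) in replicates 1, 2, 3, 5 and 6, and the mutant libraries 84.2, 88.5, 90.3, 88.8 and 87.8 CPM in the replicates of the same numbers. The groups did not overlap, and the mutant libraries lay closer together than the WT libraries. The means were 175 ± 10.7 CPM (SD, n = 5) and 87.9 ± 2.27 CPM (SD, n = 5), with an exact 2-sided permutation p of 0.00794, the smallest that 252 arrangements of 5 against 5 mice can give. On the log2 scale mutant libraries differed from WT by −0.99 (SE 0.045), and with edgeR's quasi-likelihood test the Benjamini-Hochberg adjusted p was 1.18e-07. Among the libraries that were left out, the one labelled WT replicate 4 held 176 CPM of Cul3 and the one labelled mutant replicate 4 held 85.7 CPM, each within the range of the group that its label names.

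**Figure D1:**
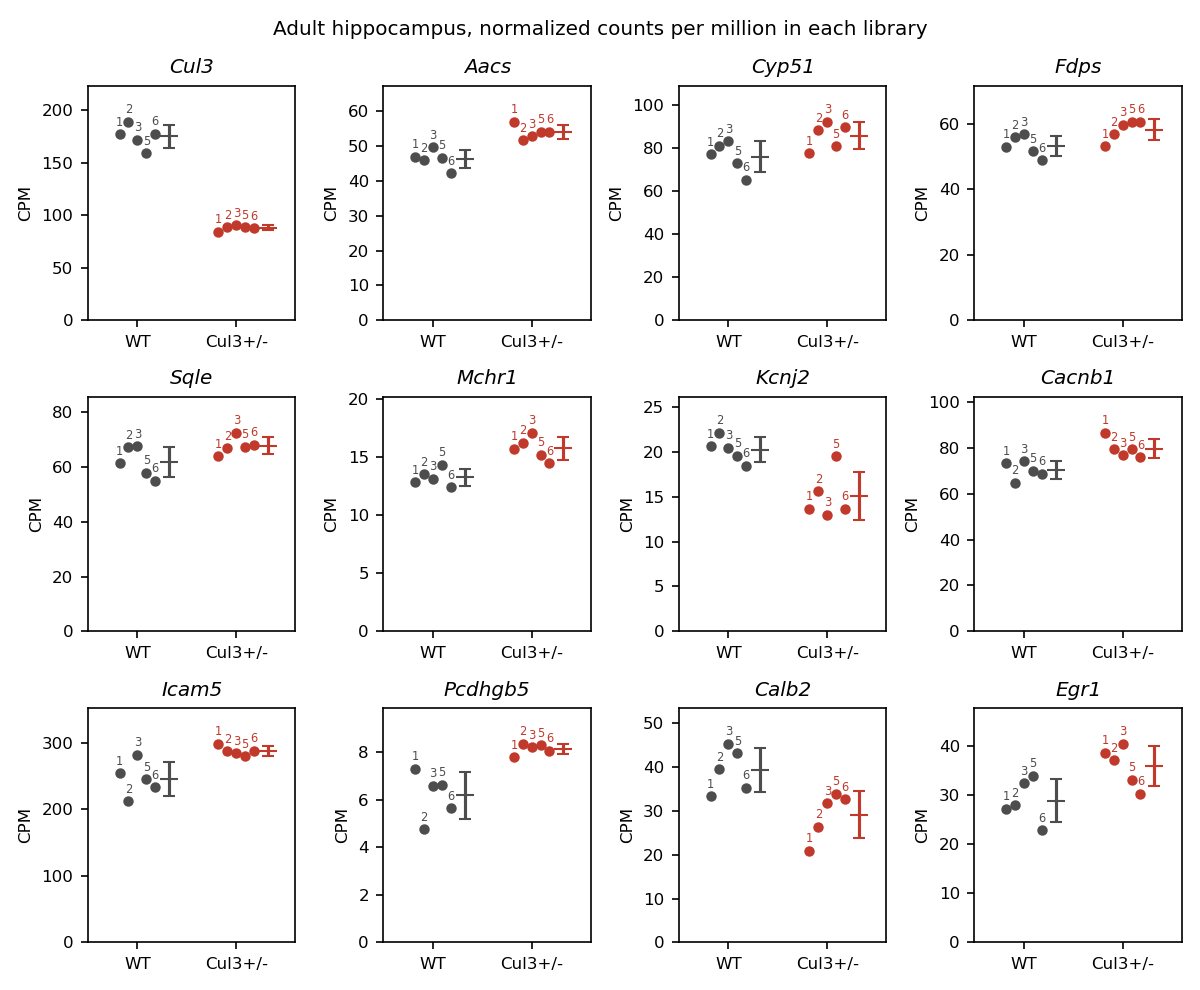
CPM (vertical axes, from 0) of 12 genes in each adult HIP library, WT in grey and Cul3+/- in red, with the replicate number beside each point and the mean ± SD of 5 libraries to the right of each group. The groups of Cul3 lie apart (159 to 189 against 84.2 to 90.3 CPM), those of Aacs and Cacnb1 do not overlap by a small margin, and those of Cyp51, Fdps, Sqle and Egr1 overlap.

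The libraries held 27477533 to 41556402 counts, and 17123 of 53465 genes had enough counts to be tested. They also differed in features that the labels do not give. Ttr, the transthyretin that choroid plexus secretes, stood at 1809 and 1294 CPM in WT replicates 3 and 5 and at 208 CPM in mutant replicate 1, against 1.70 to 30.3 CPM in the other 7 libraries. Deviations of each library from the mean of the WT libraries were compared by GC content. The median of the 4273 genes richest in GC minus that of the 4273 genes poorest in GC ran from −0.13 to 0.12 (log2) in WT libraries. In mutant libraries it ran from 0.042 to 0.18, and it was below 0 in WT replicates 1, 2 and 6 and in no mutant library. Xist, the RNA that coats the inactive X chromosome of females, was at 125 CPM or more in replicates 2, 5 and 6 of both genotypes and at most 0.298 CPM in replicates 1 and 3 of both. Mitochondrially encoded genes took between 1.82% and 2.27% of the counts. For Ttr and GC content, values from fits that take them into account stand beside several of the results below. The fit without the 3 libraries over 100 CPM of Ttr keeps WT replicates 1, 2 and 6. These are the WT libraries whose GC-rich minus GC-poor value, here called the GC balance, was below 0. In all mutant libraries kept it was above 0, so in this fit genotype and GC balance cannot be told apart. With Xist as a covariate, 1 gene was called at a false discovery rate (FDR) of 0.1 and the counts at an unadjusted p under 0.05 were 626 higher and 521 lower. The part of the mitochondrial share was not tested.

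**Figure D2:**
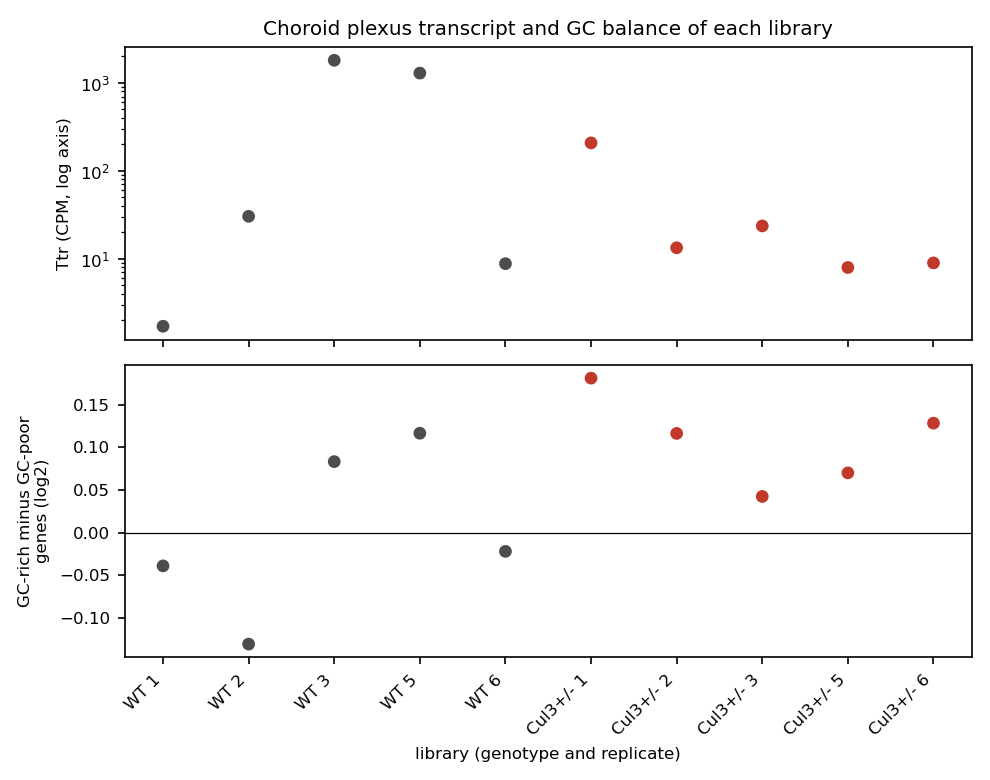
Upper panel, CPM of the choroid plexus transcript Ttr on a log axis. Lower panel, the median log2 deviation from the WT mean of the 4273 GC-richest genes minus that of the 4273 GC-poorest genes. Both show each of the 10 adult HIP libraries (WT grey, Cul3+/- red). WT 3, WT 5 and Cul3+/- 1 hold over 100 CPM of Ttr, and WT 1, 2 and 6 lie below 0 in the lower panel.

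At an FDR of 0.1, Cul3 was the 1 gene of 17123 called by edgeR's quasi-likelihood test, or 0.00584%. An unadjusted p under 0.05 was found for 583 genes that were higher (3.40%) and 487 that were lower (2.84%) in mutant mice, with 48.7% of all log2 fold changes above and 51.3% below 0. In 108 genes (0.631%) every mutant library was above every WT library, and in 77 (0.450%) every mutant library was below. These genes were spread unevenly over GC content. Of the genes with an unadjusted p under 0.05, 427 of the higher and 32 of the lower ones were among the 4273 GC-richest genes, whereas 16 of the higher and 248 of the lower ones were among the 4273 GC-poorest genes. The median log2 fold change was −0.048 in the GC-poorest and 0.060 in the GC-richest genes. In a fit with offsets that level each library over GC content, 275 genes were higher (1.61%) and 375 lower (2.19%) at an unadjusted p under 0.05, 49.8% of all genes were above 0, and Cul3 was again the 1 gene called (−0.93, adjusted p = 3.96e-09 from edgeR). Values from this fit are given below as values with GC offsets. Across genes the log2 fold change of the main fit rose with GC content (Spearman correlation 0.39). Offsets also level a genotype difference that runs along GC content, and the 2 cannot be told apart.

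The number of genes called depended on the fit. The study's own approach removed unwanted variation with RUVs before the test, and in a rewritten form RUVs with 3 and 5 factors called 189 and 472 genes. The study's model also held a term for sex, and its number of factors was the smallest that parted the genotypes in a principal component plot. The fits here had no term for sex and left out the mice of uncertain genotype, so the counts are not those of the study's approach. Without the 3 libraries over 100 CPM of Ttr, 10 genes were called. Besides Cul3, DESeq2 called Aacs (adjusted p = 0.0606), the protein-coding gene ENSMUSG00000063897 (0.0388) and the processed pseudogene Gm6565 (0.0388), and edgeR's likelihood ratio test called ENSMUSG00000063897 (0.0687) and the processed pseudogene Gm6158 (0.0687). Aacs, acetoacetyl-CoA synthetase, feeds ketone bodies into the synthesis of sterols and fatty acids, and it had 46.9, 45.9, 49.6, 46.6 and 42.2 CPM in WT replicates 1, 2, 3, 5 and 6 and 56.9, 51.5, 52.7, 54.1 and 54.1 CPM in the mutant replicates. Every mutant library was above every WT library, by a margin of 51.5 over 49.6 CPM. Aacs differed by 0.22 (log2, SE 0.045), where edgeR's quasi-likelihood test gave an adjusted p of 0.796, and by 0.17 with GC offsets. ENSMUSG00000063897 had 85 to 162 counts in WT and 185 to 252 counts in mutant libraries, without overlap, and differed by 0.59 (log2, SE 0.12), with an adjusted p of 0.796 in the same test. Gm6565 had 78, 205, 0, 87 and 246 counts in the WT libraries and 0 in all 5 mutant libraries. It did not pass the low-count filter, so the quasi-likelihood test does not include it. Gm6158 had 4 to 15 counts in WT and 15 to 30 in mutant libraries. A processed pseudogene can take reads from its near-identical parent gene, so the levels of both pseudogenes are uncertain.

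The other genes of highest rank among those higher in mutant mice without overlap had modest differences. They were Fbxl19 (log2 fold change 0.23, SE 0.053), an F-box protein that binds unmethylated CpG islands, Mchr1 (0.25, SE 0.059), the receptor of melanin-concentrating hormone, Numbl (0.22, SE 0.053), a relative of the cell fate protein Numb, Tbcc (0.23, SE 0.055), a tubulin folding cofactor, and Tbkbp1 (0.19, SE 0.047), an adaptor of the kinase Tbk1. Sema4a (0.26, SE 0.067), a semaphorin, Pcdhgb5 (0.39, SE 0.10), a clustered protocadherin, Tmem121 (0.28, SE 0.073), a membrane protein, and Fbll1 (0.17, SE 0.044), a relative of fibrillarin, complete the 10. Mchr1 had 12.4 to 14.3 CPM in WT and 14.5 to 17.1 CPM in mutant libraries, and Numbl 79.3 to 92.7 and 97.9 to 114 CPM. With GC offsets, Mchr1 (0.21) and Numbl (0.19) moved little, whereas Tbkbp1 went to 0.08 and Fbll1 to 0.05. Apart from Aacs, none of these genes passed an FDR of 0.1 with either edgeR test or with DESeq2.

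Among genes lower in mutant mice without overlap, those of highest rank after Cul3 were Ebf3 (−1.38, SE 0.34), a transcription factor of early neurons, Zfp36l1 (−0.27, SE 0.069), which promotes the decay of mRNAs, Arl6 (−0.18, SE 0.048), a GTPase of the primary cilium, Zfp37 (−0.15, SE 0.043), a zinc finger protein, and Angel2 (−0.13, SE 0.035), an RNA phosphatase. Ggact (−0.17, SE 0.048), Gmnc (−0.37, SE 0.10), a regulator of cells with many cilia, Slc39a12 (−0.14, SE 0.039), a zinc transporter, and Tmie (−0.45, SE 0.13), known from the mechanotransduction channel of hair cells, had the next ranks. Zfp36l1 had 8.82, 7.74, 9.31, 8.75 and 9.07 CPM in WT and 6.71, 7.27, 7.24, 7.68 and 7.29 CPM in mutant libraries. The groups of Zfp36l1 were separated by less than 0.10 CPM. Ebf3 was at 1.90 and 3.16 CPM in WT replicates 3 and 5, the libraries with the most Ttr, and at 0.732 to 1.24 CPM in the other WT libraries, against 0.571 to 0.678 CPM in mutant libraries. Without the 3 libraries over 100 CPM of Ttr its log2 fold change was −0.67.

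Cholesterol synthesis genes were all slightly higher in mutant mice. All 20 enzymes from acetyl-CoA to cholesterol were tested, and all 20 had a log2 fold change above 0, from 0.013 (Nsdhl) to 0.17 (Cyp51), with a median of 0.11, where 48.7% of all genes were above 0 and their median was −0.0028. None passed an FDR of 0.1 by edgeR's quasi-likelihood test, and 5 had an unadjusted p under 0.05, or 25% of the list against 6.25% of all genes in both directions. Among these 5 were Cyp51 (0.17, SE 0.067), the lanosterol demethylase, Fdps (0.13, SE 0.050), which makes farnesyl pyrophosphate, Sqle (0.13, SE 0.058), the squalene epoxidase, and Tm7sf2 (0.14, SE 0.063), a sterol reductase. With GC offsets 19 of the 20 genes were above 0, the median was 0.11 and 5 had an unadjusted p under 0.05, now with Idi1 (0.16), the isomerase of isopentenyl pyrophosphate, and without Tm7sf2.

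No gene of this list separated the genotypes. Cyp51 had 77.3, 81.2, 83.3, 73.1 and 65.3 CPM in WT replicates 1, 2, 3, 5 and 6 and 77.7, 88.3, 92.2, 80.9 and 89.8 CPM in mutant replicates. Sqle had 61.3, 67.1, 67.4, 57.9 and 55.0 CPM in WT and 63.8, 66.9, 72.4, 67.3 and 68 CPM in mutant libraries. Hmgcs1, an early synthase of the pathway, had 308 to 419 CPM in WT and 353 to 428 CPM in mutant libraries (0.10, SE 0.075). In all 3 genes WT replicate 6 was the lowest of the 10 libraries, and WT replicates 2 and 3 lay among the mutant libraries. The median deviation of the 20 genes from their WT mean was −0.024, 0.078, 0.11, −0.050 and −0.12 (log2) in WT replicates 1, 2, 3, 5 and 6 and 0.027, 0.11, 0.16, 0.12 and 0.14 in the mutant replicates. The genotypes overlapped in this measure as well, since WT replicates 2 and 3 were above mutant replicate 1. Without WT replicate 6 the median of the list was 0.073 and 0 of its genes had an unadjusted p under 0.05, whereas without WT replicate 3 the median was 0.15 and 11 did. Over the 10 fits with 1 library left out, 19 or 20 of the 20 genes were above 0. Without the 3 libraries over 100 CPM of Ttr the median was 0.17 and 11 genes had an unadjusted p under 0.05. Over all genes the count rose too, with 1018 of the 17107 genes shared with the main fit higher at that p, against 583 of 17123 in the main fit. In that fit the genes of oligodendrocytes, which form myelin, were higher in 12 of 12 cases (median 0.30, against 0.022 in all libraries), those of their precursors had a median of 0.24 (0.015 in all libraries), and the part of these cells in the cholesterol values was not tested.

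**Figure D3:**
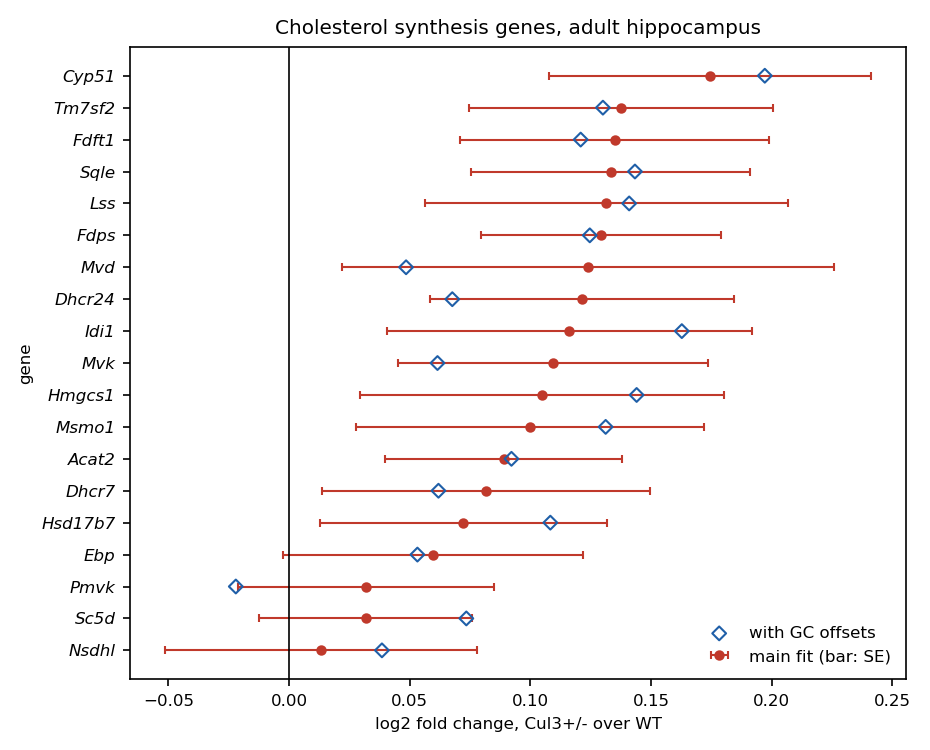
Log2 fold change of mutant over WT (horizontal axis) of 19 of the 20 cholesterol synthesis genes in adult HIP, as red points with bars of 1 SE, and with GC offsets as blue diamonds. All red points lie above 0, and with GC offsets Pmvk lies below it (−0.022).

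The upstream sequences of this list were searched because its genes all lay on 1 side of 0. Of the 20 genes, 15 have a promoter in the RefSeq table of GRCm38.p6, and Cyp51 and Tm7sf2 are those that do among the 4 genes named above for their p. In the 250 bases before the start, the letters ATTGG (the inverted CCAAT box, which binds NF-Y) were present on either strand in 14 of the 15 (93.3%). They were present in 37.5% of the 27025 genes with a promoter in the RefSeq table and in 40.1% of the 11940 of these tested in HIP. Of 20 genes of sterol regulation, uptake and turnover, 11 held them (55%). The letters TCACNCCAC (a sterol regulatory element, which binds SREBP) were present in 1 of the 15, Hmgcs1, against 1.22% of all 27025 genes. A match describes the sequence and does not show that a factor binds it. The capitals below mark both motifs on either strand, and the bases run 5′ to 3′ toward the start of the gene. The Hmgcs1 sequence is shown because it holds both motifs.
Cyp51, chr5:4104698-4104947, minus strand: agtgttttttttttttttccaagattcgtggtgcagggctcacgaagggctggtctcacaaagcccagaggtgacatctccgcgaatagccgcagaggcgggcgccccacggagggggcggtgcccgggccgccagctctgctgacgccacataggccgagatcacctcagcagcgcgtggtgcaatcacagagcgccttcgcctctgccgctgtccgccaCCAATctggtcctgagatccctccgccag
Tm7sf2, chr19:6067851-6068100, minus strand: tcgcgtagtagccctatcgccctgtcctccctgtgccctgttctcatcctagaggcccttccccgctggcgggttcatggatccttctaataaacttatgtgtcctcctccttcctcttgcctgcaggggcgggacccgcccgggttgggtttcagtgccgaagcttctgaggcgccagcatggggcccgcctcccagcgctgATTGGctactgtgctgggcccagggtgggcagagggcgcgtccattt
Hmgcs1, chr13:119690101-119690350, plus strand: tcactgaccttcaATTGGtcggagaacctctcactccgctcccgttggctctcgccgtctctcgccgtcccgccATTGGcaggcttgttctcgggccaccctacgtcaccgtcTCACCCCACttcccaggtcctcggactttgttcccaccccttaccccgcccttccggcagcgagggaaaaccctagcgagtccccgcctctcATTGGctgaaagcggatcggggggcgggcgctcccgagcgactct

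Outside the pathway itself, lipid genes showed no common direction. Of the 24 tested genes of sterol regulation, uptake and turnover, 15 were higher in mutant mice, with a median of 0.023, and 2 higher and 1 lower genes had an unadjusted p under 0.05 (12.5% of the list, against 6.25% of all genes). Srebf2, which encodes SREBP2, had a log2 fold change of 0.14 (SE 0.053), which was 0.07 with GC offsets. Mbtps2, the protease that releases SREBP from the membrane, was lower (−0.14, SE 0.056).

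In fatty acid synthesis, 20 of 32 genes were higher (median 0.018), and the genes with an unadjusted p under 0.05 were Aacs and the elongation enzyme Hsd17b12 (−0.11, SE 0.049). They make 6.25% of the list, against 6.25% of all genes. Fasn, the fatty acid synthase, had 241 to 344 CPM in WT and 284 to 358 CPM in mutant libraries (0.18, SE 0.091, unadjusted p = 0.0683 from edgeR's quasi-likelihood test). In phospholipid and sphingolipid synthesis, 27 of 48 genes were higher, the median was 0.0029 and 3 genes had an unadjusted p under 0.05 (6.25% of the list, against 6.25% of all genes). These were Pcyt2 (0.19, SE 0.061), of phosphatidylethanolamine synthesis, Cers1 (0.12, SE 0.043), the ceramide synthase of neurons, and Chpt1 (−0.11, SE 0.044), a choline phosphotransferase. With GC offsets the value of Cers1 was 0.0027 and that of Pcyt2 was 0.11.

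**Figure D4:**
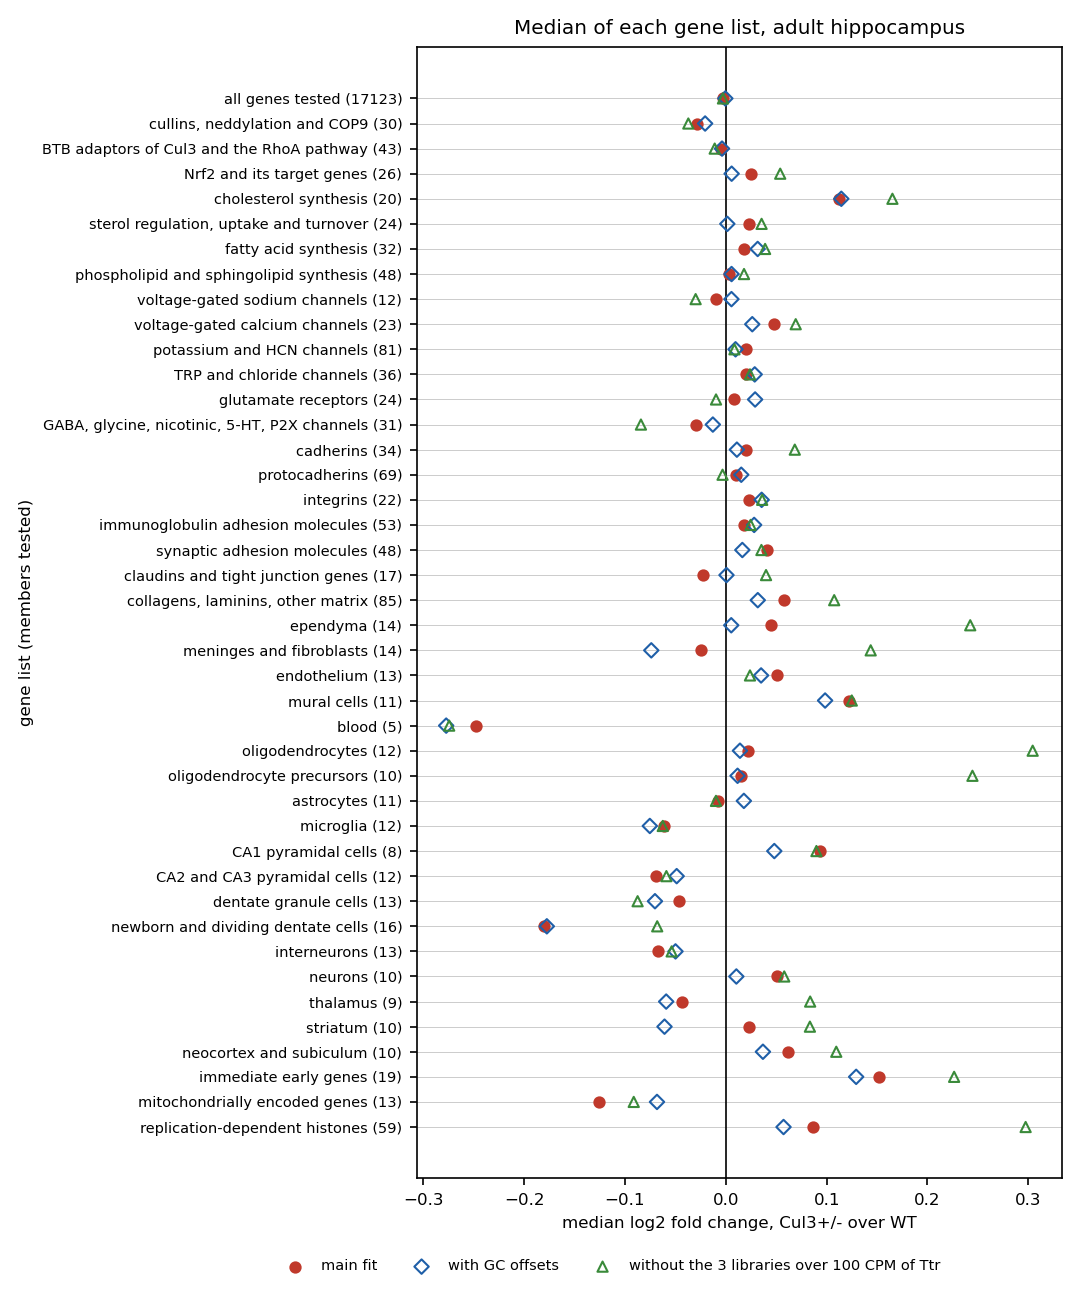
Median log2 fold change of mutant over WT (horizontal axis) of each gene list in adult HIP, with the number of members tested, in the main fit (red), with GC offsets (blue) and without the 3 libraries over 100 CPM of Ttr (green). The choroid plexus list, with a median of −1.85, is outside the axis and is not drawn. Cholesterol synthesis keeps its median of 0.11 with GC offsets, and the histone and oligodendrocyte lists lie far to the right in green alone.

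Ion channels moved little, and no channel gene passed an FDR of 0.1. Of 23 voltage-gated calcium channel subunits, 18 were higher in mutant mice (median 0.048), and 2 of them had an unadjusted p under 0.05 (8.70%, against 3.40% of all genes in that direction). Cacnb1, a cytoplasmic beta subunit, had 64.8 to 74.2 CPM in WT and 75.8 to 86.5 CPM in mutant libraries, which did not overlap (0.18, SE 0.048). Cacna1h, a T-type channel, overlapped between genotypes (0.15, SE 0.064). The list has a median GC content of 54.1%, against 49.2% for all genes, and with GC offsets its median was 0.026, with 16 genes above 0 and Cacnb1 at 0.09.

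Of 81 potassium and HCN channels, 55 were higher (median 0.020), and with GC offsets 44 were. Kcnj2, the inward rectifier Kir2.1 that holds the resting potential, differed most in rank. It had 20.6, 22.1, 20.4, 19.6 and 18.4 CPM in WT and 13.6, 15.6, 13.0, 19.5 and 13.6 CPM in mutant libraries. Mutant replicate 5 was within the WT range and the other 4 mutant libraries were below it, and the log2 fold change was −0.42 (SE 0.099, unadjusted p = 8.91e-04 from edgeR's quasi-likelihood test) and −0.37 with GC offsets. Without mutant replicate 5 it was −0.53 and passed an FDR of 0.1 (adjusted p = 0.0502 from edgeR). Kcnh3 (0.15, SE 0.053) and Kcng2 (0.15, SE 0.064) were higher, and both were at 0.05 with GC offsets.

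Voltage-gated sodium channels were lower in 8 of 12 genes, with a median of −0.0097, and Scn7a (−0.35, SE 0.13), a sensor of sodium rather than of voltage, and Scn9a (−0.26, SE 0.12) had an unadjusted p under 0.05. Among 36 TRP and chloride channels, 20 were higher and Trpm3 (−0.25, SE 0.11), which choroid plexus also expresses, was the 1 gene with an unadjusted p under 0.05. Its log2 fold change was −0.08 without the 3 libraries over 100 CPM of Ttr.

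Of 24 glutamate receptor genes, 16 were higher, with a median of 0.0081. Grin1, the obligatory subunit of NMDA receptors, had 216, 175, 216, 203 and 200 CPM in WT and 262, 216, 230, 232 and 213 CPM in mutant libraries (0.19, SE 0.067), which overlapped in 2 mutant libraries. Grin2c, another NMDA receptor subunit, was at 0.17 (SE 0.054). With GC offsets Grin1 was at 0.11 and Grin2c at 0.05, and 0 genes of the list had an unadjusted p under 0.05. The 4 AMPA receptor subunits Gria1 to Gria4 lay between −0.01 and 0.01. Of the 31 GABA, glycine, nicotinic, serotonin and P2X receptor channels, 14 were higher (median −0.029), and Gabrg1 (−0.17, SE 0.058), a GABA-A receptor subunit, was the 1 gene with an unadjusted p under 0.05.

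Adhesion genes had differences in both directions. Among 48 synaptic adhesion molecules, 27 were higher (median 0.041), and 7 higher and 1 lower genes had an unadjusted p under 0.05 (16.7% of the list, against 6.25% of all genes). The higher ones were Nrxn2 (0.19, SE 0.065), a presynaptic neurexin, Nlgn2 (0.16, SE 0.074), the neuroligin of inhibitory synapses, Lrrc4b (0.21, SE 0.076), Lrfn1 (0.19, SE 0.066), Lrfn2 (0.12, SE 0.054), Elfn2 (0.15, SE 0.044) and Adgrl2 (0.28, SE 0.11), a latrophilin. The lower one was Lrrtm2 (−0.10, SE 0.045). Elfn2 had 77.3 to 86.7 CPM in WT and 87.1 to 98.6 CPM in mutant libraries, which did not overlap. With GC offsets the median was 0.016 and 3 higher genes had an unadjusted p under 0.05. Nrxn2 was then at 0.07, Nlgn2 at 0.07 and Adgrl2 at 0.29.

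Of 69 protocadherins 36 were higher (median 0.010). Pcdhgb5 of the gamma cluster had 7.30, 4.76, 6.59, 6.63 and 5.63 CPM in WT and 7.78, 8.35, 8.21, 8.28 and 8.05 CPM in mutant libraries. The mutant libraries of Pcdhgb5 lay between 7.78 and 8.35 CPM, all above WT, and the log2 fold change was 0.37 with GC offsets. Pcdhb8 of the beta cluster was lower (−0.39, SE 0.12), with 2.89 to 3.84 CPM in WT and 2.13 to 2.92 CPM in mutant libraries, and Pcdh7, outside the clusters, was higher (0.11, SE 0.048). Among 34 cadherins, 19 were higher, and Cdhr4 (0.47, SE 0.18) and Cdh9 (−0.18, SE 0.082), a cadherin of synapses between dentate gyrus and CA3, had an unadjusted p under 0.05. Of 22 integrins, 14 were higher, and Itgb8 (−0.14, SE 0.051) had an unadjusted p under 0.05.

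Among 53 adhesion molecules of the immunoglobulin family, 34 were higher (median 0.018). Icam5, telencephalin, which is found on dendrites of the forebrain, had 255, 212, 282, 246 and 233 CPM in WT and 299, 287, 284, 280 and 288 CPM in mutant libraries. WT replicate 3 was above the lowest mutant library, and the other WT libraries were below all of them (0.23, SE 0.062, and 0.11 with GC offsets). Igsf8 was higher (0.13, SE 0.047), and Vcam1 (−0.14, SE 0.054), Jam2 (−0.11, SE 0.051) and Emb (−0.39, SE 0.18) were lower. Emb was at 0.02 without the 3 libraries over 100 CPM of Ttr.

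Of 17 claudins and other tight junction genes, 9 were lower, with a median of −0.023. Cldn1 (−1.28, SE 0.40), Cldn2 (−2.07, SE 0.67) and Tjp3 (−0.60, SE 0.25) had an unadjusted p under 0.05. Cldn2, a claudin of choroid plexus epithelium, had 8.34 and 6.63 CPM in WT replicates 3 and 5, the libraries with the most Ttr, and 0.427 to 1.76 CPM in the other 8 libraries. Without the 3 libraries over 100 CPM of Ttr the values were −0.38, −0.57 and −0.14.

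Of 85 collagen, laminin and other matrix genes, 53 were higher (median 0.058), and 6 in each direction had an unadjusted p under 0.05 (14.1% of the list, against 6.25% of all genes). Without the 3 libraries over 100 CPM of Ttr the median was 0.11, with 7 higher and 2 lower genes at that p. Of the 17107 genes shared with the main fit, 1018 were higher and 759 lower at that p in the same smaller set. Col11a2 (0.27, SE 0.072), a fibrillar collagen, had 25.1 to 30.1 CPM in WT and 30.2 to 38.8 CPM in mutant libraries, without overlap. Fn1, fibronectin, was highest in mutant replicate 1 at 43.8 CPM, with 25.5 to 29.4 CPM in the other mutant and 22.3 to 26.5 CPM in the WT libraries (0.34, SE 0.12, and 0.22 without the 3 libraries over 100 CPM of Ttr). Bcan (0.13, SE 0.042), the brevican of perineuronal nets, and Fbn2 (0.28, SE 0.11) were higher as well, and Bcan was at 0.03 with GC offsets. Ogn (−0.40, SE 0.16), Ecm2 (−0.33, SE 0.11), Frem1 (−0.59, SE 0.22) and Postn (−0.85, SE 0.28) were lower. Postn was at −0.27 and Frem1 at −0.18 without the 3 libraries over 100 CPM of Ttr.

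Partners of Cul3 differed little between genotypes. Among 30 other cullins and genes of neddylation and the COP9 signalosome, 22 were lower (median −0.028), and none passed an FDR of 0.1. Nedd8 had 54.2 to 61.9 CPM in WT and 53.2 to 57.6 CPM in mutant libraries (−0.11, SE 0.044, and −0.15 with GC offsets). Ube2m, the enzyme that passes Nedd8 to Cul3, was at 0.09 (SE 0.035) and changed sign to −0.04 with GC offsets. The other cullins Cul1, Cul2, Cul4a, Cul4b, Cul5, Cul7 and Cul9 lay between −0.11 and 0.11, and Rbx1 was at −0.03.

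Of 43 BTB adaptors and genes of the RhoA pathway, 19 were higher (median −0.0042), and 5 had an unadjusted p under 0.05 (11.6% of the list, against 6.25% of all genes). Klhl21 (0.22, SE 0.072), an adaptor that acts in cytokinesis, Keap1 (0.11, SE 0.042), the adaptor of Nrf2, and Rhob (0.14, SE 0.062), a relative of RhoA, were higher, and Kbtbd6 (−0.38, SE 0.15) and Kbtbd8 (−0.14, SE 0.056) were lower. Kctd13, an adaptor of RhoA, had 49.7 to 61.3 CPM in WT and 57.1 to 60.0 CPM in mutant libraries, which overlapped (0.11, SE 0.053). Rhoa itself had 89.9 to 101 CPM in WT and 84.4 to 95.7 CPM in mutant libraries (−0.07, SE 0.044, unadjusted p = 0.129 from edgeR's quasi-likelihood test). These are RNA levels, and the amount of RhoA protein was not measured here. Of 26 genes of Nrf2 and its targets, 15 were higher (median 0.025), and Mafk (0.20, SE 0.065), a partner of Nrf2 on DNA, was the 1 gene with an unadjusted p under 0.05.

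The labelled tissue was checked against markers of hippocampal fields, which were present in every library. Fibcd1 and Pou3f1 of CA1, Rgs14 of CA2 and Prox1 and C1ql3 of dentate granule cells had means between 22.7 and 162 CPM in either genotype. Lists of thalamus and of neocortex and subiculum had medians of −0.043 and 0.061. Their summed levels were highest in WT replicate 5, at 187 and 229 CPM. In the other libraries they ran from 131 to 172 and from 158 to 224 CPM, so the share of neighbouring tissue may differ between dissections. All 8 CA1 genes were higher in mutant mice (median 0.093), with Pou3f1 (0.26, SE 0.069), a transcription factor, and Ccn3 (0.44, SE 0.16), a matricellular protein, at an unadjusted p under 0.05. The list has a median GC content of 55.8%, against 49.2% for all genes, and with GC offsets 7 of 8 were above 0 (median 0.048). The same genes were higher in 6 of 8 cases in adult CX (median 0.053), 5 of 8 in adult CB (median 0.15) and 0 of 8 in HIP at P7 (median −0.28). Pou3f1 had 20.1 to 24.6 CPM in WT and 24.3 to 30.2 CPM in mutant libraries, and its log2 fold change was 0.13 with GC offsets. Of 12 genes of CA2 and CA3, 9 were lower (median −0.069), and Pcp4, a calmodulin regulator of CA2, had 65.2 to 73.2 CPM in WT and 58.3 to 65.8 CPM in mutant libraries (−0.17, SE 0.044). Of 13 dentate granule cell genes, 9 were lower (median −0.046). In bulk tissue, fewer cells of a type and less RNA per cell cannot be told apart, and this holds for each of these lists.

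Genes of newborn neurons and dividing cells of the dentate gyrus were lower in 14 of 16 cases, with a median of −0.18, and 6 of them had an unadjusted p under 0.05 (37.5%, against 2.84% of all genes in that direction). Calb2, calretinin, which marks immature granule cells and some interneurons, had 33.4, 39.5, 45.3, 43.0 and 35.3 CPM in WT and 20.9, 26.4, 31.7, 33.9 and 32.6 CPM in mutant libraries. Mutant replicate 5 was above the lowest WT library, and the other 4 mutant libraries were below all WT libraries (−0.43, SE 0.12, and −0.45 with GC offsets). Ccnb1, the cyclin of mitosis, had 1.11 to 1.5 CPM in WT and 0.596 to 1.05 CPM in mutant libraries, and Draxin, a guidance molecule, 1.78 to 1.95 and 1.38 to 1.68 CPM, both without overlap. Eomes, the factor of intermediate progenitors, was at 1.87 and 2.68 CPM in WT replicates 3 and 5, at 0.732 to 1.22 CPM in the other WT libraries and at 0.756 to 1.07 CPM in mutant libraries (−0.75, SE 0.29). Mki67 and Top2a, genes of dividing cells, were at −0.16 and −0.19, and Dcx, doublecortin of young neurons, was at −0.03. Sox11 and Sox4, transcription factors of young neurons with higher levels than Ccnb1, Draxin and Eomes, overlapped between genotypes. Sox11 had 37.1 to 40.3 CPM in WT and 37.4 to 41.3 CPM in mutant libraries. Sox4 had 23.5 to 24.9 CPM in mutant libraries, all within its WT range. The median was −0.18 with GC offsets, −0.13 without WT replicate 5 and −0.068 without the 3 libraries over 100 CPM of Ttr, where 1 of the 16 genes had an unadjusted p under 0.05.

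Choroid plexus genes were high in 2 WT libraries. All 15 tested genes of the 19 in the list were lower in mutant mice (median −1.85), and 13 had an unadjusted p under 0.05 (2.84% of all genes in that direction did). The summed level of the tested genes was 2050.2 and 1483 CPM in WT replicates 3 and 5, 31.4 to 67.5 CPM in the other WT libraries, 265 CPM in mutant replicate 1 and 38.8 to 63.3 CPM in the other mutant libraries. Without those 3 libraries, 12 of the 15 genes were above 0, the median was 0.26, Ttr was at 0.01 and Kl, the Klotho protein that plexus also makes, at 0.01. For Ttr this follows from the choice of the libraries by their Ttr. Blood genes, such as the haemoglobins, were lower in 5 of 5 cases (median −0.25) without an unadjusted p under 0.05. Oligodendrocyte genes were higher in 7 of 12 cases (median 0.022), and microglia genes lower in 9 of 12 (median −0.062), with 0 genes of either list at an unadjusted p under 0.05. Of the 11 astrocyte genes, 4 were higher and 7 lower, with a median of −0.0075. Gfap of this list had 273 to 323 CPM in WT and 260 to 273 CPM in mutant libraries (−0.16, SE 0.050). Its groups were barely apart, with 273.24 CPM in the lowest WT and 273.19 CPM in the highest mutant library. Without the 3 libraries over 100 CPM of Ttr it was at −0.07.

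Immediate early genes, which neurons transcribe within minutes of activity, were higher in 15 of 19 cases, with a median of 0.15. They were higher in 18 of 19 cases in CX of the same adult mice (median 0.33), 13 of 17 in adult CB (median 0.078) and 9 of 19 in HIP at P7. Egr1 had 27.3, 28, 32.5, 34.1 and 23 CPM in WT and 38.7, 37.2, 40.5, 33.2 and 30.3 CPM in mutant libraries, and Egr4 5.15 to 10.8 and 9.81 to 13.3 CPM. Both overlapped between genotypes (0.31, SE 0.10, and 0.55, SE 0.20). WT replicates 3 and 5, the libraries with the most Ttr, held the highest WT levels of Egr4, 10.8 and 10.7 CPM. Without the 3 libraries over 100 CPM of Ttr, Egr4 was at 0.94 and passed an FDR of 0.1 (adjusted p = 0.0785 from edgeR), Egr1 was at 0.44, and 18 of the 19 genes were higher (median 0.23), 8 of them at an unadjusted p under 0.05. Of the 17107 genes shared with the main fit, 1018 were higher at that p in the same smaller set. The list is rich in GC (median 54.6%), and the WT libraries of that set were those with a GC balance below 0. With GC offsets in all libraries, 15 of the 19 genes were above 0 (median 0.13). The spread within each genotype was wide, since the median deviation of the list ran from −0.32 to 0.32 (log2) in WT and from −0.13 to 0.37 in mutant libraries. Arc (0.21, SE 0.15) and Jun (0.07, SE 0.081) were higher without an unadjusted p under 0.05, and Npas4 was at −0.40. Mitochondrially encoded genes were lower in 12 of 13 cases (median −0.13), with mt-Atp8 (−0.20, SE 0.062) and mt-Nd1 (−0.15, SE 0.054) at an unadjusted p under 0.05. These genes are poor in GC (median 37.1%), and with GC offsets the median was −0.068 and 0 genes had an unadjusted p under 0.05. They were lower in 13 of 13 cases in adult CX (median −0.14), 9 of 13 in adult CB (median −0.28) and 7 of 13 in HIP at P7.

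Whether the genotype difference in adult HIP was unlike that in other datasets was tested by interactions. HIP was compared with CX and CB of the same adult mice with mouse as a block, and with HIP at P7. The quasi-likelihood test called, at an FDR of 0.1, 0 of 19034 genes for HIP minus CX, 0 of 19034 for HIP minus CB and 0 of 18574 for adult minus P7. An unadjusted p under 0.05 was found for 322 genes (1.69%), 3666 genes (19.3%) and 1014 genes (5.46%). DESeq2 called 5, 742 and 2 genes, and the likelihood ratio test 0, 242 and 0. The count for HIP minus CB changed when single mice were left out, with 1191 genes called without mutant replicate 2, 7 without WT replicate 1, 11 without WT replicate 5 and 1 without WT replicate 6.

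Cholesterol synthesis genes were above 0 in 20 of 20 cases in adult HIP, 19 of 20 in adult CX (median 0.066) and 17 of 20 in adult CB (median 0.13), and in 4 of 20 in HIP at P7 (median −0.030). Over all genes the shares above 0 were 52.0% in adult CX, 50.3% in adult CB and 52.5% in HIP at P7. The 3 adult regions come from the same mice and are not independent. The interaction of genotype with age was above 0 for 20 of 20 genes (median 0.14), and 3 had an unadjusted p under 0.05 (5.46% of all genes in both directions did). Tm7sf2 was at 0.14 in adult HIP and −0.06 at P7, a difference of 0.21. Ebp (0.25), a sterol isomerase, was another, and none of the 3 passed an FDR of 0.1.

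Calcium channels were above 0 in 18 of 23 cases in adult HIP and in 3 of 23 in adult CB (median −0.14). The interaction of HIP minus CB was above 0 for 22 of 23 (median 0.24), with 7 genes at an unadjusted p under 0.05 (19.3% of all genes in both directions did), and none passed an FDR of 0.1. In this contrast oligodendrocyte genes were above 0 in 0 of 12 cases (median −0.36), microglia genes in 0 of 12 (median −0.29, 8 at an unadjusted p under 0.05) and neuron genes in 7 of 10 (median 0.14). In adult CB itself, oligodendrocyte and microglia genes were each higher in 12 of 12 cases, and the part of these cells in the interaction was not tested. Synaptic adhesion molecules were higher in 27 of 48 cases in adult HIP, 26 of 48 in adult CX (median 0.023) and 9 of 47 in adult CB (median −0.089). For HIP minus CB, 12 of 48 had an unadjusted p under 0.05 (19.3% of all genes in both directions did), 11 of them with a higher value in HIP. Kcnj2 was at −0.42 in adult HIP, −0.26 in adult CX, 0.09 in adult CB and 0.09 in HIP at P7, and its difference of HIP minus CB was −0.53 (SE 0.12, adjusted p = 0.176 from edgeR). Pcdhgb5 was at 0.39 in adult HIP, 0.05 in CX and −0.44 in CB, with a difference of HIP minus CB of 0.79 (SE 0.15, adjusted p = 0.166 from edgeR).

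Newborn and dividing cell genes were lower in 14 of 16 cases in adult HIP and higher in 14 of 16 in HIP at P7 (median 0.098). The median difference was −0.27, and 4 of the 16 genes had an unadjusted p under 0.05 (5.46% of all genes in both directions did). In adult CX, which has no dentate gyrus, the list was lower as well, in 12 of 15 cases (median −0.12). In adult CB it was lower in 6 of 14 (median 0.035). The difference of HIP minus CX had a median of −0.064. Zfp36l1 was at −0.27 in adult HIP and 0.25 in HIP at P7, and the difference was −0.52 (SE 0.12, adjusted p = 0.896 from edgeR). The choroid plexus list went the other way at P7, where all 17 tested genes were higher in mutant mice (median 1.63). Of these, 11 had an unadjusted p under 0.05, against 613 higher genes of all 17754 tested at P7. Of the 19 genes of the list, 19 had an unadjusted p under 0.05 for adult minus P7, all of them below 0. Each age thus had an imbalance of plexus RNA between its genotypes, in opposite directions, and its part in the interactions was not tested.

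**Figure D5:**
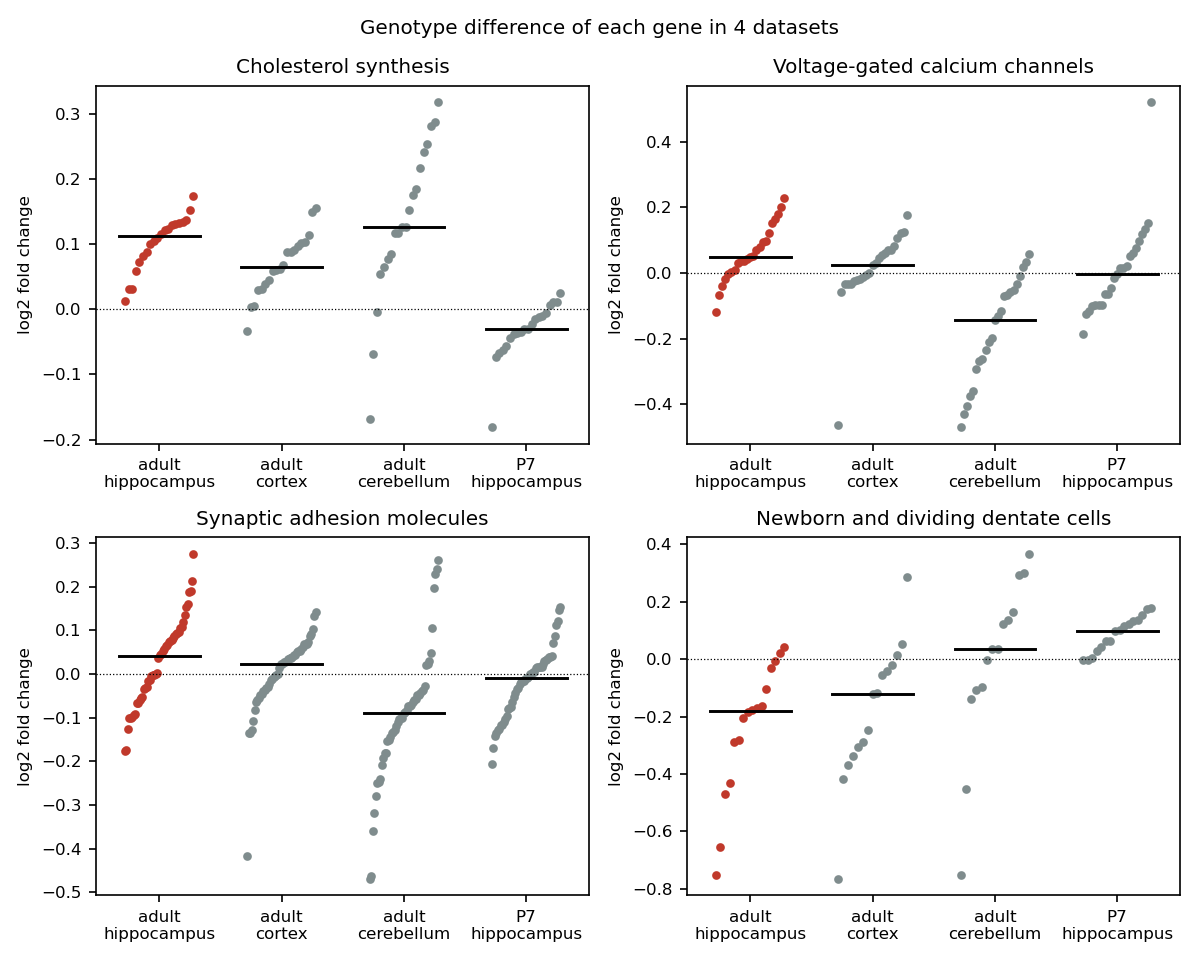
Log2 fold change of mutant over WT (vertical axes, scaled for each panel) of each gene of 4 lists in adult HIP (red) and in adult CX, adult CB and HIP at P7 (grey), in rising order, with the median of each dataset as a black bar and 0 dotted. Cholesterol synthesis genes are all above 0 in adult HIP and mostly below it at P7, and calcium channels are mostly below 0 in adult CB.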

How the data were processed

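Expected counts per gene were deposited by the authors. According to the submitters' processing notes, reads were trimmed with cutadapt 1.14, aligned with STAR 2.5.3a and counted with RSEM 1.3 on GRCm38.p5 (mm10). The library kit marks strand, but the strand setting of the counting is not given in the sources used here, so antisense genes and near-identical copies are uncertain. Labels and methods give different read lengths.

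Of the deposited values, 5.76% were not whole, and all were rounded. Genes were filtered with filterByExpr (minimum count 10, minimum total 15), scaled by TMM and tested with the quasi-likelihood test of edgeR 4.0.16 (R 4.3.3, limma 3.58.1) with Benjamini-Hochberg adjustment at an FDR of 0.1. DESeq2 1.42.0 was an alternative. SE is the log2 fold change divided by the root of F. Deviations are of log2 CPM with a prior count of 2 from the mean of the WT libraries, so that 0 is the WT mean. Scripts were tested on simulated data. Symbols were matched for 99.6% of identifiers. GC content, of the longest GENCODE M21 transcript, was known for 99.8% of tested genes. GC offsets were a lowess fit (span 0.3) on it of each library's deviation from the mean over all libraries of the fit. RUVs was rewritten for this work.

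The members and gene lists were chosen with earlier results of these data known, and lists were described by counts and medians without a test. Named were genes called by any of the 3 tests, the 10 genes per direction with the smallest p among those without overlap (mean CPM of at least 1, with a symbol other than Gm numbers or Rik), and list members by smallest p or highest level. Some genes that the rule names are not reported here. GC offsets and the fit without the libraries over 100 CPM of Ttr were chosen after seeing the data. Mouse numbers name samples only, and p-values measure the spread between these mice.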

Additional observations from a re-analysis of the deposited data

Results flagged for a closer look

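Ttr was at 208 CPM in mutant replicate 1, and the nearest of the other 4 mutant libraries was at 23.6 CPM, a gap far larger than the spread of those 4. It was the 1 group that stood out among 28 groups of 5 libraries tested in this way, over 14 genes, and chance sets apart about 1 group in 20.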

How the results depend on the processing

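Cul3 was called in every fit listed here, with log2 fold changes between −1.03 and −0.93. The number of genes called at an FDR of 0.1, 1 in the reported fit, was 4 with DESeq2, 3 with the likelihood ratio test, 189 and 472 with RUVs of 3 and 5 factors, 10 without the libraries over 100 CPM of Ttr, and 1 to 2 with single libraries left out (2 without WT replicate 3, adding Gm6565, and 2 without mutant replicate 5, adding Kcnj2). Genes higher at an unadjusted p under 0.05, 583 as reported, numbered 894 without a low-count filter, 1075 with a choroid plexus covariate, 875 and 1132 with RUVs of 3 and 5 factors, 911 with all 12 libraries, 1028 without the libraries over 100 CPM of Ttr, 275 with GC offsets, and 357 (without WT replicate 2 and without mutant replicate 1) to 783 (without WT replicate 5). Lower genes, 487 as reported, numbered 808 with the covariate, 817 with RUVs of 5 factors, 772 without the libraries over 100 CPM of Ttr, and 300 (without mutant replicate 1) to 738 (without WT replicate 5).

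Signs changed for Ube2m with GC offsets (−0.042), for Ttr (0.55) and Clic6 (0.33) with the covariate, and, without the libraries over 100 CPM of Ttr, for Ttr (0.013), Clic6 (0.49), Prlr (0.056), Kl (0.012) and Emb (0.017). The covariate is the mean log2 CPM of the tested choroid plexus genes, Ttr and Clic6 among them. A loss of their difference with it is thus built in. The smaller set was chosen by Ttr, and for Ttr the same holds there. The cause of the other changes was not tested. The interaction of HIP minus CX had 5 calls with DESeq2. That of HIP minus CB had 1 with upper-quartile normalization, 2 without a filter, 242 with the likelihood ratio test, 742 with DESeq2 and 0 to 1191 with single mice left out. That of adult minus P7 had 1 without a filter and 2 with DESeq2.

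With the replicate number as a block, 869 genes were higher and 653 lower at an unadjusted p under 0.05, and Cul3 was the 1 gene called. The labels do not say that the numbers pair mice. Correlations between same-numbered libraries were 0.28, 0.19, 0.31, −0.12 and 0.012, and 3 of the 5 pairs correlated best with their own number. Xist was high or low alike within all 5 numbers. Since not every correlation was above 0.1, the numbers were not taken as pairs. With the block, genes at an unadjusted p under 0.05 went from 2 to 8 in calcium channels, from 5 to 7 in cholesterol synthesis, from 2 to 7 in mitochondrially encoded genes and from 13 to 3 in choroid plexus. With 5 mice a group, differences within the spread of the libraries could not be told from 0, and low counts limit genes near 1 CPM most.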

Other observations

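Several lists of other cell types and states were measured that the comparisons do not use. Mural cell genes were higher in mutant mice in 10 of 11 cases (median log2 fold change 0.12), and interneuron genes were lower in 8 of 13 (median −0.067). Replication-dependent histone genes were higher in 41 of 59 cases, with a median of 0.086, which was 0.057 with GC offsets and 0.30 without the libraries over 100 CPM of Ttr, where 23 of them had an unadjusted p under 0.05. In that smaller set of libraries, 1018 of the 17107 genes shared with the main fit were higher at that p. The histone list is rich in GC (median 57.2%), and the WT libraries of that set were those with a GC balance below 0. Ependymal genes had medians of 0.045 in all libraries and 0.24 in the same smaller set.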
